A study of Homo sapiens with 12 samples.

Results

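The genes described are 8 metallothioneins, MT1A, MT1E, MT1F, MT1G, MT1H, MT1M, MT1X and MT2A, and the zinc exporter SLC30A1, 9 of the 23922 genes in the files. They were picked by name, through their Entrez gene numbers, in all 12 libraries. Every one had at least 1 listed transcript, and 7 of the 9 passed the filter on low counts that precedes the test. MT1A and MT1M did not pass it. The libraries held total RNA of H9 cells, a long-established line of human embryonic stem cells, taken along a published route to hepatocyte-like cells. Cells labelled hepatoblasts were collected on day 7 and cells labelled hepatocytes on day 19, and each day had 3 treatments with 2 libraries each. Control cells received 0.1% DMSO, the solvent. The others received 30 nM T3 (triiodothyronine, the form of thyroid hormone that binds its nuclear receptors most tightly) or 30 nM T4 (thyroxine, which carries an iodine that T3 lacks and is converted to T3 by deiodinases). All cells came from this single line, and the labels state neither the start of hormone exposure nor whether paired libraries came from separate cultures, so a p-value here is set against differences between libraries that could be technical in origin. The question the design asks of these genes is whether either hormone changed their transcript level, on which day, and by how much.

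Metallothioneins are small proteins, unusually rich in cysteine, that bind zinc, copper and cadmium through clusters of thiolates. The liver is a main site of their synthesis, and fetal liver stores zinc bound to them. The transcription factor MTF1 senses free zinc and binds metal response elements in the promoters of metallothionein genes and of SLC30A1. SLC30A1 (also called ZnT1) is the zinc exporter of the plasma membrane. Glucocorticoids and oxidative stress are other known inducers of metallothionein genes. In the human genome the metallothionein genes lie side by side on chromosome 16, and SLC30A1 lies alone on chromosome 1.

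The promoters are shown because the metal response element is the known binding motif of MTF1 in genes of this kind. RefSeq promoter sequences (GRCh38.p14) were held for 4 of the 9 genes, MT1H, MT1X, MT2A and SLC30A1, and the 250 bases before each start were searched on both strands for the metal response element core, TGCACNC or TGCGCNC, where N is any base. Each sequence below runs 5′ to 3′ on the strand of its gene, and capitals mark every match to the core, read on either strand. The positions are chr16:56669564-56669813 (plus strand) for MT1H, chr16:56682220-56682469 (plus strand) for MT1X, chr16:56608334-56608583 (plus strand) for MT2A and chr1:211579162-211579411 (minus strand) for SLC30A1.
MT1H: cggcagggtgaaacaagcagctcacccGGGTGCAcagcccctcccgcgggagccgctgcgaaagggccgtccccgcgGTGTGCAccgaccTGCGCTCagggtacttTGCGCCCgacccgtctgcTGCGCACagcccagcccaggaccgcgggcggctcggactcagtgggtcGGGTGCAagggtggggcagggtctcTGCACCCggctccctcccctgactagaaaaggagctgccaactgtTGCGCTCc
MT1X: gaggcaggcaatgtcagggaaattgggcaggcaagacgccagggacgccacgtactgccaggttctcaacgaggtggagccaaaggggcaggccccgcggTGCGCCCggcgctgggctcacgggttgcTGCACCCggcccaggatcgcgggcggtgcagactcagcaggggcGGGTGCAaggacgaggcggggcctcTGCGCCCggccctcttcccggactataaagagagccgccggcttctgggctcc
MT2A: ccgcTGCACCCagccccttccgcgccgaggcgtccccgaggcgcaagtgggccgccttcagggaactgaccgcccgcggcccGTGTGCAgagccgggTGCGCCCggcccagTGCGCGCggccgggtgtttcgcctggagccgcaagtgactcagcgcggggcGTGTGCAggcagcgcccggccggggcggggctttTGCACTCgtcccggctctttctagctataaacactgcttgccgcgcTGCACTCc
SLC30A1: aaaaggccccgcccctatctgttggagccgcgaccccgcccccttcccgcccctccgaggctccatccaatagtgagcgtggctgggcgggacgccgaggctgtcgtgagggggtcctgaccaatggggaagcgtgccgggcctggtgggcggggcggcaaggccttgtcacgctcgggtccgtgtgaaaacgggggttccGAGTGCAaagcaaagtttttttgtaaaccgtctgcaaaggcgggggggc
MT1H had 8 matches, MT2A had 7, MT1X had 4 and SLC30A1 had 1. Of 35116 promoters of the same length, 24.8% held at least 1 match, 0.37% at least 4, 0.0313% at least 7 and 0.0171% at least 8. The nearest matches ended 2 bases before the start in MT1H and MT2A, 47 bases in MT1X and 43 bases in SLC30A1. A match is a run of letters and not a shown binding site.

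The 8 metallothionein genes spanned 75.61 kb of chromosome 16, from 56608584 to 56684196 (GRCh38.p14), with MT2A at one end and MT1X at the other. SLC30A1 occupied 211571568 to 211579161 of chromosome 1. No member overlapped another gene of the RefSeq annotation. The coding sequences were close to each other, which matters for counting: over the 28 pairs of the 8 genes, identity ranged from 88.7% to 94.6% with a median of 91.9%. The closest pair, MT1A and MT1E, differed at 10 of 186 bases (GENCODE release 29), so that reads between differing bases fit both. The deposited expected counts divide such shared reads between genes in proportion, so the level of any single metallothionein is less certain than its replicates make it look, and the sum over the 8 genes is given as well.

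Libraries held 18363549 to 19306181 expected counts. Levels are CPM, counts per 1e+06 counts after TMM scaling, unless FPKM, which is also per length of transcript, is named. Spread between replicates exceeded counting error in all 6 groups, the chi-square per gene being at least 1.571 and at most 2.051 on day 7 but 4.722 to 8.139 on day 19. The labelled cell types were checked against marker lists. Of the 10 hepatocyte markers, all were listed, and their summed level was 64250 and 67970 CPM in the DMSO libraries of day 19 but 2880 and 3866 CPM with T3 and 7409 and 8317 CPM with T4. Intestinal epithelium markers (8 of 8 listed) summed to 25150 and 26710 CPM in the DMSO libraries of day 19. With T3 they summed to 2552 and 3014 CPM and with T4 to 5754 and 6226 CPM. Mesenchymal markers summed to 6714 and 6479 CPM in those DMSO libraries, 2593 and 3436 CPM with T3, and 3518 and 3918 CPM with T4. The list was not uniform, as its members TAGLN and ACTA2 did not fall with either hormone. The neural and pluripotent sums went the other way, although not every member of either list rose. The neural sum was 128.8 and 118.3 CPM in DMSO, 291.8 and 254.6 CPM with T3, and 229.7 and 220 CPM with T4. The pluripotent sum was 97.89 and 97.04 CPM in DMSO, 158.6 and 149.9 CPM with T3, and 154.4 and 150.6 CPM with T4. At day 7 the hepatocyte sum was 5156 and 5185 CPM in DMSO, 3921 and 3802 CPM with T3, and 4109 and 4037 CPM with T4. In bulk RNA, fewer cells of a type and less RNA per cell cannot be told apart, and the part of these marker changes in the metallothionein results was not tested.

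MT2A gave the most transcript per length in all 6 groups. In day 7 DMSO cells the order by FPKM was MT2A at 84.2 and 89.4, MT1G at 75.5 and 68.1, MT1X at 45 and 49.4, MT1E at 31.1 and 29.5, MT1F at 26.9 and 25.9, SLC30A1 at 12.4 and 12.2, and MT1H at 5.18 and 8.36. No neighbours in that order overlapped between replicates. MT1M, at 1.2 and 0.96 FPKM, and MT1A, at 0.08 and 0.2 FPKM, closed it. By day 19 in DMSO, MT2A stood at 61.5 and 72.8 FPKM, well clear of MT1X at 27.1 and 32.3 and MT1G at 28.2 and 25.2, whose values overlapped. MT1F (16.8 and 22.9), MT1E (16.7 and 19.2) and SLC30A1 (21.1 and 14.8) also overlapped one another in FPKM there, and MT1H was last among the tested genes at 1.28 and 0.99 FPKM.

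The make-up of the family by FPKM differed between days and, for several genes, between treatments. MT2A supplied 31.3% and 32.9% of metallothionein FPKM in the DMSO libraries of day 7 and 40.3% and 41.9% in those of day 19. MT1G supplied 28.1% and 25.1% at day 7 and 18.5% and 14.5% at day 19 in DMSO. MT1X took a larger share with T3 at day 7, at 25.1% and 26.9% against 16.7% and 18.2% in DMSO, and T4 lay between at 22.3% and 22.7%. MT1F took a smaller share with either hormone at day 19, at 3.77% and 5.34% with T3 and 3.98% and 4.74% with T4 against 11% and 13.2% in DMSO. The MT2A share was 28% and 29% with T3 and 29% and 27.7% with T4 at day 7, below DMSO. At day 19 it was 46.9% and 44.3% with T3 and 46.6% and 45% with T4, above DMSO. MT1H supplied 1.79% and 1.36% with T4 at day 19 against 0.838% and 0.57% in DMSO. These shares are descriptions without a test.

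**Figure D1:**
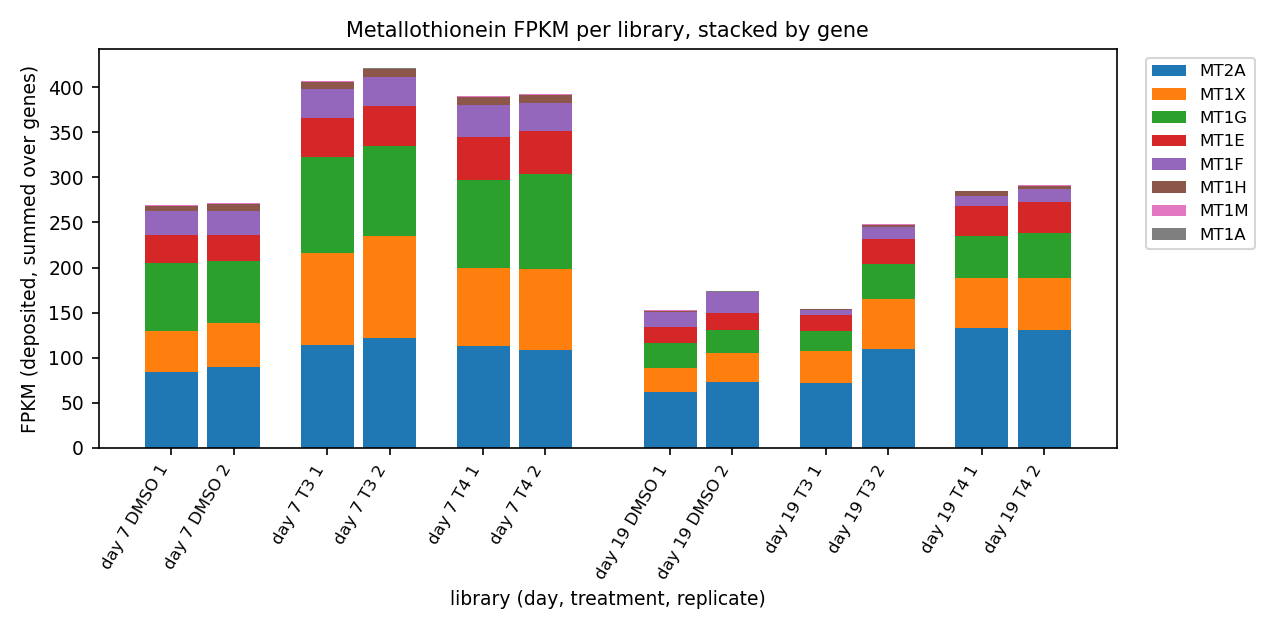
Deposited FPKM of the 8 metallothionein genes (y axis, FPKM) stacked for each of the 12 libraries (x axis, by day, treatment and replicate). The stacks reach 269.2 and 271.8 in day 7 DMSO and at least 390 in every hormone library of day 7, while at day 19 the 2 T3 libraries differ, at 154.5 and 248.6.

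At day 7 the summed metallothionein level was higher with either hormone, and among the 7 tested genes MT1X had the largest fold change with each. MT1M, which was too scarce for the test, went the other way, from 0.4331 CPM on average in DMSO to 0.1224 CPM with T3 and 0.2447 CPM with T4. The sum of the 8 genes was 102.5 and 103.2 CPM in DMSO, 158.7 and 164.8 CPM with T3, and 151.8 and 152 CPM with T4, so that the group means stood 1.57-fold (T3) and 1.48-fold (T4) above DMSO. The groups did not overlap. MT1X, MT1G, MT1E and MT2A rose with T3, which makes 4 of the 7 tested genes higher and 0 lower, where 16.0% of all 18101 tested genes passed in either direction, 9.43% higher and 6.54% lower. With T4, MT1X, MT1E and MT1G rose, 3 of 7, against 6.42% of all tested genes in either direction, 3.90% higher and 2.52% lower. The median log2 change of the 7 genes was 0.48 with T3 and 0.47 with T4, against 0.01 over all tested genes with each hormone. Markers of other cell types moved in the same day 7 comparisons. The pluripotent marker sum (7 of 8 listed) was 1453 and 1474 CPM in DMSO, 2271 and 2233 CPM with T3, and 1987 and 2021 CPM with T4, with 6 of 7 tested markers higher with each hormone. The endothelial sum (6 of 6 listed) was 77.72 and 78.16 CPM in DMSO and 44.3 to 46.82 CPM in the hormone libraries, with 5 of 6 lower with each hormone. Of the hepatocyte markers, 6 of 10 fell with T3 and 4 of 10 with T4. Mesenchymal markers (8 of 8 listed) summed to 379.5 and 387.1 CPM in DMSO, 438.7 and 415 CPM with T3, and 371.1 and 361.6 CPM with T4. The part of these markers in the metallothionein values was not tested.

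MT1X, a widely expressed form, measured 17.5 and 19.2 CPM in DMSO, 40.7 and 45.1 CPM with T3, and 34.4 and 35.2 CPM with T4 at day 7. Every hormone library lay far above both DMSO libraries. The log2 fold change was 1.22 with T3 (SE 0.137, adjusted p = 3.29e-05 by edgeR's quasi-likelihood test with Benjamini-Hochberg adjustment), a 2.34-fold rise. With T4 it was 0.92 (SE 0.139, adjusted p = 0.00117), a 1.9-fold rise. Both calls held when each of the 12 libraries was left out in turn, with log2 values of 1.15 to 1.30 for T3 and 0.86 to 0.99 for T4.

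MT1G, whose coding sequence is 189 bases long where those of the other 7 are 186, measured 26.3 and 23.7 CPM in DMSO, 38.1 and 35.6 CPM with T3, and 34.7 and 37.5 CPM with T4. The hormone libraries were again all above the DMSO ones. Its log2 fold change was 0.56 with T3 (SE 0.131, adjusted p = 0.00967, edgeR) and 0.53 with T4 (SE 0.131, adjusted p = 0.0259, edgeR). The T3 call was lost without DMSO replicate 2 or T3 replicate 1, where the adjusted p reached 0.112, and the T4 call without any 1 of the 4 libraries compared, where it reached 0.235, while the log2 values stayed between 0.46 and 0.64.

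MT1E measured 13.5 and 12.8 CPM in DMSO, 19.0 and 19.8 CPM with T3, and 20.9 and 21.1 CPM with T4, again without overlap. The log2 fold change of MT1E was 0.56 with T3 (SE 0.15, adjusted p = 0.0209, edgeR) and 0.67 with T4 (SE 0.149, adjusted p = 0.0144, edgeR). MT2A, the form that is most abundant here, measured 32.65 and 34.5 CPM in DMSO, 45.2 and 48.4 CPM with T3, and 44.7 and 42.8 CPM with T4. It passed with T3, by 0.48 in log2 (SE 0.129, adjusted p = 0.0213, edgeR), but not with T4, at 0.38 (SE 0.13, adjusted p = 0.103, edgeR). Without day 19 T3 replicate 1 or 2, MT2A passed with T4 at day 7 as well (adjusted p down to 0.00521, edgeR). Leaving out any 1 of the 4 libraries compared ended the calls of MT1E and of MT2A, with adjusted p up to 0.141 (MT1E, T3), 0.139 (MT1E, T4) and 0.147 (MT2A, T3), although the log2 values moved only within 0.52 to 0.60, 0.63 to 0.71 and 0.43 to 0.53.

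MT1F and MT1H did not pass at day 7. MT1F measured 10.2 and 9.81 CPM in DMSO, 12.6 and 12.6 CPM with T3, and 13.7 and 11.95 CPM with T4, with log2 fold changes of 0.34 (95% interval -0.11 to 0.78) and 0.36 (-0.09 to 0.80). MT1H measured 1.685 and 2.69 CPM in DMSO, 2.79 and 3.08 CPM with T3, and 2.997 and 3.07 CPM with T4. Its intervals were -0.14 to 0.99 with T3 and -0.09 to 1.03 with T4. Hormone libraries lay above the DMSO ones in both genes, but neither difference could be separated from the spread that the shared fit estimates. In fits on deposited FPKM, MT1X alone was called at day 7 with either hormone.

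**Figure D2:**
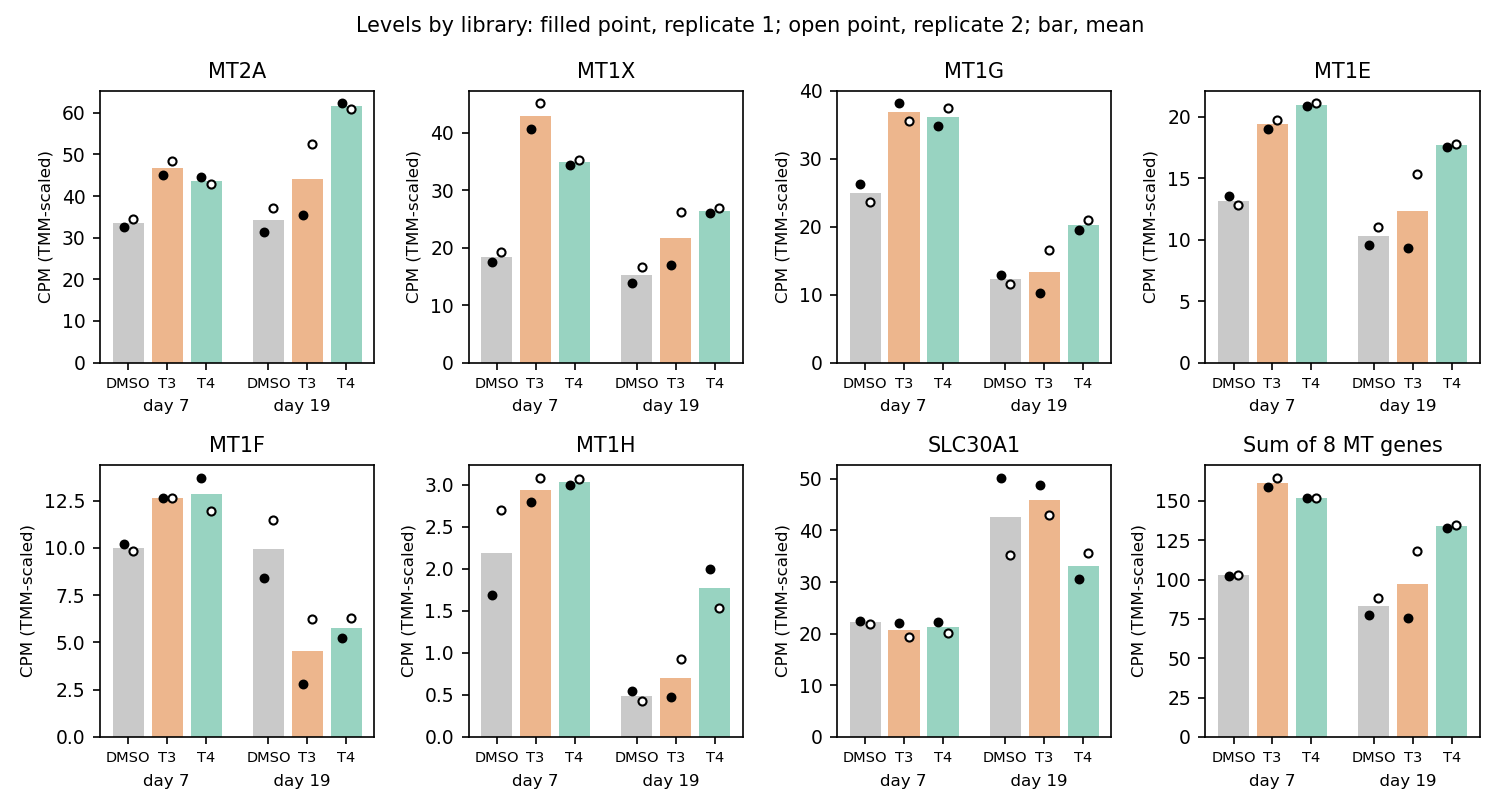
TMM-scaled level (y axis, CPM) of the 7 tested genes and of the sum of 8 metallothioneins in each library, by treatment and day (x axis); bars are means of 2 libraries, filled points replicate 1 and open points replicate 2. The summed panel shows hormone libraries of 151.8 to 164.8 CPM at day 7 against 102.5 and 103.2 in DMSO, and T3 libraries of 75.62 and 118.4 CPM at day 19 that lie on both sides of the DMSO pair.

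At day 19 the tested metallothioneins were higher with T4 except for MT1F, which was lower with both hormones, and SLC30A1 was lower with T4. The summed level was 77.35 and 88.48 CPM in DMSO and 132.9 and 134.7 CPM with T4, a 1.61-fold difference of means with no overlap. With T3 the sum was 75.62 and 118.4 CPM, so that these libraries bracketed the DMSO pair and the 1.17-fold difference of means was within their spread. All 7 tested genes passed with T4, 5 higher and 2 lower, where 42.8% of all tested genes passed in either direction (21.0% higher, 21.9% lower). With T3 there were 2 higher and 1 lower of 7, against a background of 52.3% (25.1% higher, 27.3% lower), so the share with T3 did not exceed that background. The median log2 change of the 7 genes was 0.78 with T4, against 0.00 over all tested genes, and 0.26 with T3, against -0.03.

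MT2A at day 19 measured 31.4 and 37.2 CPM in DMSO, 35.6 and 52.6 CPM with T3, and 62.3 and 60.9 CPM with T4. The T4 pair was tight and above every other library, while T3 replicate 1 fell between the DMSO libraries. MT2A rose with T4 by a log2 value of 0.84 (SE 0.131, adjusted p = 0.000104, edgeR), a 1.79-fold change, and with T3 by 0.36 (SE 0.134, adjusted p = 0.0352, edgeR). The T4 call held without any 1 library, with log2 values of 0.73 to 0.97. The T3 call was lost without DMSO replicate 1 or T3 replicate 2, where the log2 value fell to as little as 0.05 and the adjusted p rose to 0.706.

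MT1X at day 19 measured 13.9 and 16.6 CPM in DMSO, 17 and 26.3 CPM with T3, and 26.0 and 26.9 CPM with T4. All hormone libraries were above DMSO, T3 replicate 1 only narrowly. The log2 fold change was 0.79 with T4 (SE 0.153, adjusted p = 0.000681, edgeR) and 0.51 with T3 (SE 0.157, adjusted p = 0.014, edgeR). Without DMSO replicate 1 or T3 replicate 2 the T3 call was lost, with values down to 0.16 and an adjusted p of up to 0.327.

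MT1G and MT1E rose with T4 at day 19 and did not pass with T3. MT1G measured 13.0 and 11.6 CPM in DMSO, 10.2 and 16.6 CPM with T3, and 19.6 and 20.9 CPM with T4, and MT1E measured 9.57 and 11.05, 9.28 and 15.3, and 17.5 and 17.8 CPM. In both genes the T3 libraries lay on either side of the DMSO pair and the T4 libraries above all of them. The T4 changes were 0.72 (MT1G, SE 0.159, adjusted p = 0.00192, edgeR) and 0.78 (MT1E, SE 0.163, adjusted p = 0.00138, edgeR) on the log2 scale, and both calls held without any 1 library. With T3 the 95% intervals were -0.24 to 0.49 for MT1G and -0.11 to 0.62 for MT1E, and leaving out T3 replicate 1 turned both into calls, at log2 values of 0.43 and 0.57.

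MT1H showed the largest fold with T4 at day 19 among the 7 genes, on few counts. Its expected counts were 9.09 and 7 in DMSO, 8 and 16.19 with T3, and 35.09 and 27.14 with T4, which is 0.545 and 0.425, 0.479 and 0.931, and 1.997 and 1.535 CPM. A floor of 3 counts in a library was 0.155 to 0.163 CPM before scaling, so DMSO libraries were within a few times that floor. The log2 fold change was 1.85 with T4 (SE 0.391, adjusted p = 0.00143, edgeR), a 3.6-fold change whose 95% interval ran from 1.01 to 2.69 in log2. With T3 it was 0.54 (interval -0.46 to 1.53), and no call was made. The T4 call held without any 1 library.

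MT1F was the only tested metallothionein that fell at day 19. It measured 8.42 and 11.5 CPM in DMSO, 2.81 and 6.23 CPM with T3, and 5.25 and 6.31 CPM with T4, and every hormone library was below both DMSO libraries. The change with T3 was -1.13 in log2 (SE 0.248, adjusted p = 0.00139, edgeR), a 2.19-fold fall that held without any 1 library, with values of -1.82 to -0.68. With T4 it was -0.78 (SE 0.238, adjusted p = 0.0156, edgeR), a 1.72-fold fall. The T4 call ended without DMSO replicate 2 or T4 replicate 1 (adjusted p up to 0.142), in fits on day 19 libraries alone, and in fits on FPKM. Nearly all MT1F counts sat on 1 of its 2 listed transcripts (87.8% to 100% per library), and the gene value is their sum.

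The 2 T3 libraries of day 19 stood apart from each other in these genes. Replicate 2 exceeded replicate 1 by 1.48-fold (MT2A) to 2.21-fold (MT1F) in the 6 tested metallothioneins, while SLC30A1 was 0.882 of its value. In the same libraries the hepatocyte marker sum was 2880 CPM in replicate 1 and 3866 CPM in replicate 2, and the mesenchymal marker sum 2593 and 3436 CPM. Over the 327 tested genes with transcripts of at most 600 nt, the range of the metallothioneins, the median log2 ratio of replicate 2 to replicate 1 was 0.03. Whether the marker difference bears on the metallothionein difference was not tested.

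**Figure D3:**
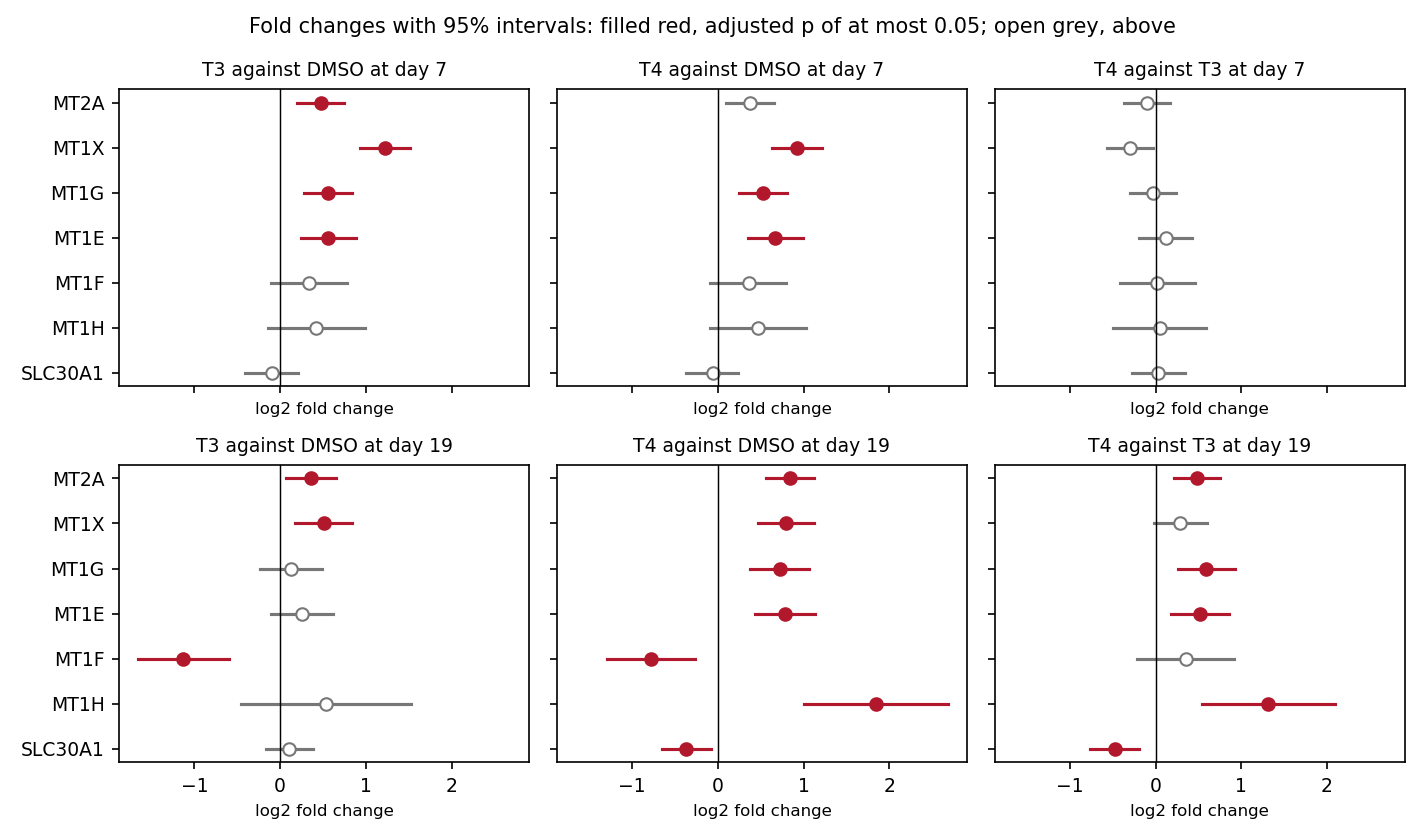
Log2 fold changes (x axis) with 95% intervals for the 7 tested genes (y axis) in 6 comparisons, hormone against DMSO and T4 against T3 on each day; filled red points have an adjusted p of at most 0.05. MT1F points left with both hormones at day 19 (-1.13 and -0.78), while MT1X points right in all 4 comparisons with DMSO (1.22, 0.92, 0.51 and 0.79).

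T4 and T3, given at the same 30 nM, were compared directly on each day in the 7 genes, 14 differences in all. At day 7, 0 of 7 passed (background 0.365% of all tested genes, 0.0387% higher and 0.326% lower with T4), and 1 of the 7, MT1X, had an unadjusted p under 0.05 in edgeR. MT1X was lower with T4 than T3 by 0.30 in log2 (95% interval of the difference -0.57 to -0.03, adjusted p = 0.663, edgeR). In a fit on day 7 libraries alone, 1 gene, MT1X, was called, and DESeq2 on all libraries called 0. For MT2A the interval was -0.37 to 0.17 and for MT1G -0.30 to 0.24, so differences of more than about those sizes were not seen.

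At day 19, 5 of 7 passed between T4 and T3, against 15.7% of all tested genes (7.42% higher, 8.31% lower with T4). MT1H was higher with T4 by 1.31 (SE 0.361, adjusted p = 0.0235, edgeR), MT1G by 0.59 (SE 0.156, adjusted p = 0.0181, edgeR), MT1E by 0.52 (SE 0.159, adjusted p = 0.0392, edgeR) and MT2A by 0.48 (SE 0.127, adjusted p = 0.019, edgeR), all on the log2 scale. SLC30A1 was lower with T4 by a log2 value of -0.47 (SE 0.133, adjusted p = 0.0265, edgeR). MT1X (0.29, interval -0.02 to 0.60) and MT1F (0.35, interval -0.22 to 0.92) did not pass. These calls depended on which libraries were fitted. Fitted on day 19 libraries alone, 0 of 7 passed, and without T3 replicate 1 there were also 0, with log2 values that shrank to 0.21 for MT1E, 0.29 for MT1G, 0.92 for MT1H, 0.23 for MT2A and -0.38 for SLC30A1. Without T4 replicate 1 all 5 calls were lost as well, and without T4 replicate 2 those of MT1E, MT1G and MT2A, with adjusted p of up to 0.333 over all omissions. The call of MT1E was lost also without any 1 of the 6 day 7 libraries. Without T3 replicate 2, MT1F and MT1X were called too, at 1.04 and 0.64.

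SLC30A1, the exporter, did not follow the metallothioneins. At day 7 it measured 22.4 and 21.9 CPM in DMSO, 22.05 and 19.4 CPM with T3, and 22.3 and 20.1 CPM with T4. These ranges touched or overlapped, and the 95% intervals of the log2 change were -0.41 to 0.21 with T3 and -0.37 to 0.24 with T4. At day 19 it measured 50.2 and 35.2 CPM in DMSO, 48.8 and 43.05 CPM with T3, and 30.6 and 35.6 CPM with T4. The T3 libraries fell inside the DMSO range, and 1 of the T4 libraries did too. SLC30A1 was 0.37 lower in log2 with T4 (95% interval -0.65 to -0.08, adjusted p = 0.039, edgeR), and the change with T3 was 0.10 (-0.17 to 0.38), which became a call at 0.38 without DMSO replicate 1. Of all the members' calls against DMSO this was among the least firm. It was lost in 6 of 12 omissions: without DMSO or T4 replicate 1 of day 19, and without any 1 of the 4 DMSO and T4 libraries of day 7. The adjusted p then reached 0.609 and the log2 value -0.09. DESeq2 gave -0.35 with an adjusted p of 0.0538, and limma on log2(FPKM + 1) gave -0.21 with an adjusted p of 0.277.

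The DMSO replicates of day 19 also differed for SLC30A1 by 0.7-fold. Among the 917 tested genes with transcripts above 8000 nt, the median log2 ratio of replicate 2 to replicate 1 was -0.22 in that pair. For the 327 genes of at most 600 nt it was 0.11. For the 7348 genes above 2000 and up to 4000 nt, the range of SLC30A1, it was 0.02, against -0.51 for SLC30A1 itself. Metallothionein transcripts are 397 to 519 nt long in the files and that of SLC30A1 is 2034 nt. Removing the trend of each library with transcript length, an alternative added after this was seen, kept all 7 calls with T4 at day 19. Whether transcript length bears on the SLC30A1 difference between the DMSO replicates was not tested.

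From day 7 to day 19 the exporter rose and most metallothioneins fell or held. In DMSO, SLC30A1 rose by 0.95 in log2 (SE 0.137, adjusted p = 1.92e-05, edgeR), a 1.93-fold change. It rose with T3 as well, by 1.15 (SE 0.137, adjusted p = 2.52e-06, edgeR), and with T4, by 0.64 (SE 0.141, adjusted p = 0.000821, edgeR). All 3 calls held without any 1 library. MT1G fell by 1.03 in DMSO (SE 0.152, adjusted p = 2.47e-05, edgeR) and MT1H fell by 2.16 (SE 0.372, adjusted p = 0.000103, edgeR). The DMSO comparison thus held 1 higher and 2 lower of 7, where 72.4% of all tested genes passed (37.6% higher, 34.9% lower). MT2A (0.03, interval -0.26 to 0.32), MT1F (-0.01, interval -0.47 to 0.46), MT1X (-0.27) and MT1E (-0.35) did not pass in DMSO, although MT1X and MT1E passed without day 19 T3 replicate 1 or 2 (adjusted p down to 0.0232 and 0.00507, edgeR).

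The days were also compared within each hormone. With T3, 5 of 7 fell and 1 rose (background 73.1%, 35.2% higher and 37.9% lower). They were MT1E (-0.65), MT1X (-0.98), MT1G (-1.46), MT1F (-1.48) and MT1H (-2.04), and each call held without any 1 library. With T4, 4 fell and 2 rose (background 71.9%, 35.5% higher and 36.4% lower): MT1X (-0.40), MT1H (-0.78), MT1G (-0.84) and MT1F (-1.15) fell, and MT2A rose by 0.49 (SE 0.125, adjusted p = 0.00259, edgeR) beside SLC30A1. The MT1X call with T4 was lost without day 7 T4 replicate 1 or 2 or day 19 T4 replicate 1. That of MT1H was lost without day 7 T4 replicate 1 or 2 or day 19 T4 replicate 2. Over all omissions the log2 values were -0.43 to -0.37 for MT1X and -0.98 to -0.61 for MT1H. With the length trend removed the MT1X and MT1H values were -0.20 and -0.55 and not called. Without day 19 T3 replicate 2, MT2A fell with T3 too (-0.40), and without either T3 library of day 19, MT1E fell with T4 (adjusted p down to 0.0184, edgeR). The summed metallothionein level at day 19 was 0.806 of that at day 7 in DMSO, 0.6 with T3 and 0.881 with T4. The number of genes called in DMSO, 3 of 7, differed between fits, and the cause was not tested. Limma on FPKM called 6, all but MT2A, in each of 3 fits. The numbers were not compared between treatments by a test. Day and cell stage cannot be told apart in this design.

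Whether a hormone acted differently on the 2 days was tested as the difference of its effects. MT1F differed with both hormones, from 0.34 at day 7 to -1.13 at day 19 with T3 (difference -1.47, SE 0.324, adjusted p = 0.00233, edgeR) and from 0.36 to -0.78 with T4 (difference -1.14, SE 0.315, adjusted p = 0.0143, edgeR). MT1X responded less to T3 at day 19 than at day 7 (difference -0.72, SE 0.209, adjusted p = 0.0142, edgeR). MT1H responded more to T4 at day 19 (difference 1.38, SE 0.48, adjusted p = 0.0453, edgeR). That makes 2 of 7 genes for T3, against 38.0% of all tested genes, and 2 of 7 for T4, against 27.7%, so that the T3 share lay below its background and the T4 share close to its own. MT2A, MT1G, MT1E and SLC30A1 did not pass for either hormone. The MT1F difference for T3 held without any 1 library (-2.16 to -1.01). The MT1X difference was lost without DMSO replicate 1 or T3 replicate 2 of day 7 or DMSO replicate 2 of day 19 (adjusted p up to 0.0723). For T4, the MT1F difference was lost without T4 replicate 1 of either day or DMSO replicate 2 of day 19 (adjusted p up to 0.0671), and the MT1H difference in 8 of 12 omissions, those of any day 7 library but DMSO replicate 1, of either day 19 DMSO library and of day 19 T4 replicate 1 (adjusted p up to 0.181). Without day 19 T3 replicate 2, the T3 differences of MT1E, MT1G and MT2A were called too, at -0.71, -0.83 and -0.43, and without day 19 DMSO replicate 1 that of SLC30A1, at 0.48. The T4 difference of MT2A (0.46, adjusted p = 0.0787, edgeR) was called without day 19 DMSO replicate 2 or either day 19 T3 library, and that of SLC30A1 without day 19 DMSO replicate 2, at -0.54.

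MT1A and MT1M were near the limit of detection. MT1A had 0.61 to 3.1 expected counts per library, mostly below the floor of 3 counts, in every group. MT1M had 9.64 and 7.68 expected counts in day 7 DMSO, 3.49 and 2.13 with T3 and 5.47 and 5.01 with T4. At day 19 it had 6.34 and 0 in DMSO, 4.21 and 6.56 with T3, and 3.81 and 4.39 with T4. The day 7 DMSO pair lay above the other day 7 libraries, on too few counts for a test. Other metallothionein genes were scarce as well. Of 13 listed, 7 were in the files (MT1B, MT3, MT4, MT1L, MT1DP, MT1JP and MT1IP) and 0 passed the filter. Their highest group mean was 0.4407 CPM, for the pseudogene MT1L in day 7 T3 cells. MT1A averaged 0.1469 CPM and MT1M 0.1224 CPM in that group.

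The other zinc transporters showed a mixed response. Of the 10 other exporters of the SLC30 family and TMEM163, all 10 were tested. At day 7, 1 rose and 2 fell with T3 (background 16.0%) and 0 rose and 2 fell with T4 (background 6.42%). SLC30A10, known as a manganese exporter, averaged 4.355 CPM in DMSO, 2.056 CPM with T3 and 1.566 CPM with T4 (log2 changes -1.08 and -1.47, adjusted p = 0.00218 and 0.000848, edgeR). SLC30A4, which loads zinc into vesicles, fell by 0.76 and by 0.51 (adjusted p = 0.00188 and 0.0365, edgeR). SLC30A2, another vesicular exporter, rose with T3 by 0.94 (SE 0.243, adjusted p = 0.0171, edgeR). At day 19, 2 rose and 2 fell with each hormone, a smaller share than that of all tested genes with T3 (52.3%) and close to it with T4 (42.8%). SLC30A10 fell by 1.23 with T3 and by 0.46 with T4 (adjusted p = 1.83e-05 and 0.0257, edgeR). SLC30A3, the transporter that fills synaptic vesicles with zinc in neurons, rose by 1.95 and 1.64 from a DMSO mean of 0.5155 CPM (adjusted p = 0.000503 and 0.00309, edgeR). SLC30A2 rose with T3 by 0.63 (adjusted p = 0.00135, edgeR), and SLC30A5, which acts in the early secretory pathway, fell by 0.24 with T4 (adjusted p = 0.00664, edgeR).

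Among the zinc importers of the SLC39 family, SLC39A5, SLC39A4 and SLC39A14 fell at day 19 with both hormones. Of 14 listed, 13 were tested. At day 7, 1 rose and 2 fell with T3 (background 16.0%) and 0 rose and 2 fell with T4 (background 6.42%). The share of all genes that passed was itself larger on the later day. At day 19, 3 rose and 6 fell with T3 (background 52.3%) and 4 rose and 6 fell with T4 (background 42.8%), with median log2 changes of -0.22 and -0.18. SLC39A5, a basolateral zinc importer of enterocytes and other epithelia, measured 150.5 and 153.6 CPM in day 19 DMSO, 12.45 and 17.98 CPM with T3, and 31.9 and 36.43 CPM with T4. It fell by 3.32 with T3 (SE 0.112, adjusted p = 1.07e-11, edgeR) and by 2.15 with T4 (SE 0.1, adjusted p = 6.37e-10, edgeR). SLC39A4, the apical importer of dietary zinc, measured 43.49 and 49.67 CPM in day 19 DMSO, 5.508 and 9.25 CPM with T3, and 9.987 and 10.63 CPM with T4. Its falls were 2.65 and 2.18 (adjusted p = 9.56e-10 and 8.88e-09, edgeR). SLC39A14, the importer of zinc, iron and manganese that inflammation induces in liver, measured 341.5 and 334.8, 124.2 and 142.8, and 147.8 and 173 CPM, and fell by 1.34 and 1.08 (adjusted p = 1.64e-09 and 2.99e-08, edgeR). At day 7, SLC39A14 fell by 0.43 and 0.29 and SLC39A5 by 0.46 and 0.35. SLC39A1, a plasma membrane importer, rose by 0.21 with T3 at day 7 (adjusted p = 0.0158, edgeR). SLC39A8, named here after its values were seen because it is close to SLC39A14 in sequence and substrates, rose at day 19 by 0.61 with T3 and 0.47 with T4 (adjusted p = 8.52e-05 and 0.00109, edgeR). In the same DMSO to hormone comparisons of day 19, the hepatocyte and intestinal marker sums fell as given above, and their part in the importer values was not tested.

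MTF1, the zinc sensor of metallothionein promoters, was singled out after its values were seen. It measured 19.36 and 18.04 CPM in day 7 DMSO and 19.11 to 20.43 CPM across the hormone libraries of that day, with log2 changes of 0.10 (SE 0.115) and 0.08 (SE 0.115) that did not pass. At day 19 it measured 15.99 and 12.39 CPM in DMSO, 24.97 and 20.13 CPM with T3, and 16.38 and 17.05 CPM with T4. It rose with T3 by 0.67 (SE 0.123, adjusted p = 0.000338, edgeR). The T4 value was 0.24 (SE 0.127, adjusted p = 0.153, edgeR). Of the 8 listed regulators of metal and stress response, 3 rose and 1 fell with T3 at day 7 (background 16.0%) and 0 rose and 1 fell with T4 (background 6.42%). NFE2L2, the oxidative stress factor NRF2, fell with both by 0.41 and 0.32 (adjusted p = 0.000287 and 0.00419, edgeR). STAT3 and KEAP1, the latter being the inhibitor of NRF2, rose with T3 by 0.44 and 0.31 (adjusted p = 0.000359 and 0.00368, edgeR). At day 19, 6 rose and 1 fell with T3 (background 52.3%) and 3 rose and 1 fell with T4 (background 42.8%). SP1, USF1 and STAT3 had the smallest p with T3, with log2 rises of 0.59, 0.55 and 0.37 that were below the 0.67 of MTF1 (adjusted p = 1.42e-05, 1.54e-05 and 0.000105, edgeR). USF1 and KEAP1 rose with T4 by 0.49 and 0.22, and NR3C1, the glucocorticoid receptor, fell by 0.53 (adjusted p = 0.00117, edgeR).

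**Figure D4:**
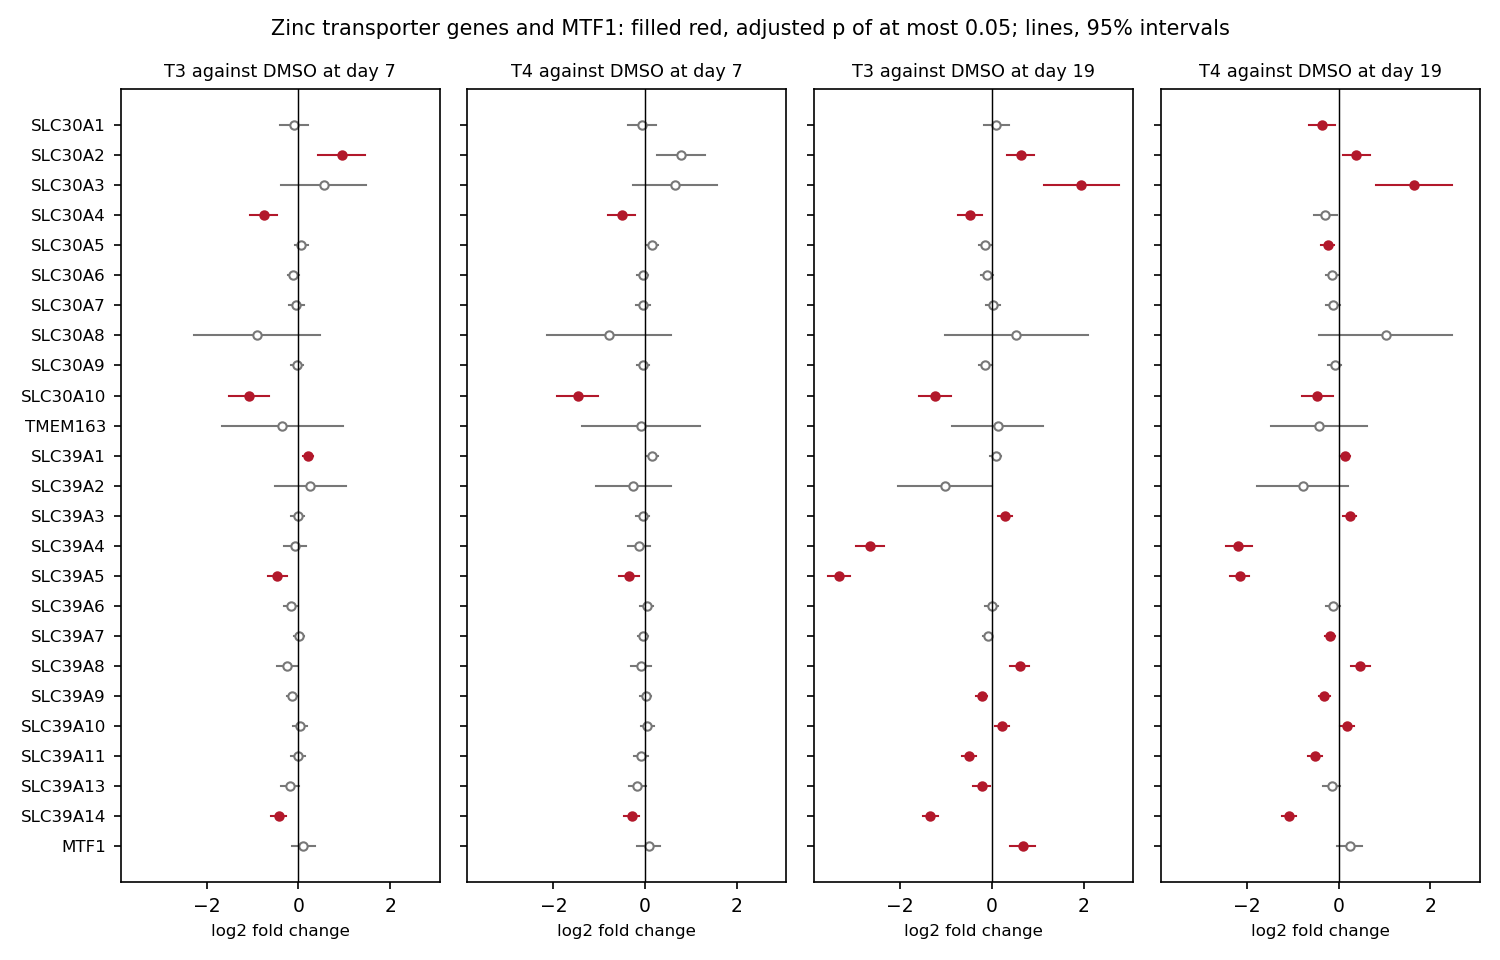
Log2 fold change with 95% interval (x axis) of SLC30A1, the other SLC30 and SLC39 transporter genes, TMEM163 and MTF1 (y axis), with each hormone against DMSO on each day; filled red points have an adjusted p of at most 0.05. SLC39A5 and SLC39A4 lie far to the left at day 19 (-3.32 and -2.65 with T3), while SLC30A1 stays near 0 except with T4 at day 19 (-0.37).

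Genes flanking the metallothionein cluster did not share 1 direction. Of 10 neighbours on chromosome 16, 9 were tested, and CETP was not. At day 7, 4 rose and 1 fell with T3 (background 16.0%), and 1 rose and 0 fell with T4 (background 6.42%). GNAO1, a G protein subunit gene 251 kb away, rose with both by 0.77 and 0.63 (adjusted p = 0.000275 and 0.00336, edgeR). NUP93, a nuclear pore gene and the nearest at 45.9 kb, rose by 0.22 with T3 at day 7 (adjusted p = 0.0268, edgeR) and gave 0.21 with T4 (adjusted p = 0.0569, edgeR). BBS2, which overlaps OGFOD1, rose by 0.23 with T3. SLC12A3 rose by 1.91 with T3 at day 7 (adjusted p = 0.0167, edgeR) from 0.3852 and 0.3367 CPM to 1.225 and 1.516 CPM. At day 19, 4 rose and 3 fell with T3 (background 52.3%) and 2 rose and 3 fell with T4 (background 42.8%). HERPUD1, an endoplasmic reticulum stress gene 248 kb away, rose by 1.85 and 1.38 (adjusted p = 4.99e-12 and 2.2e-10, edgeR). CES1, a liver carboxylesterase gene 775 kb away, fell by 1.35 and 1.64, and NUDT21 by 0.22 and 0.17. NUP93 rose by 0.38 and 0.24. GNAO1 passed with T3 alone at day 19 (0.37), OGFOD1 in none of the 4 comparisons, and SLC12A3 was at 0 in 1 of the DMSO libraries of day 19, so no fold is given for it there.

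Across the 12 libraries, MT1E, MT1G, MT1H and MT1X correlated most closely with one another. SLC30A1 correlated negatively with the tested metallothioneins other than MT2A, and hardly at all with MT2A. As a description over libraries that share groups and scaling, Pearson r of log2(CPM + 1) was 0.951 between MT1H and MT1G, 0.920 between MT1X and MT1E, and 0.866 between MT1G and MT1E, the lowest of these 4 genes' pairs being 0.781 (MT1X and MT1H). MT1F gave 0.690 with MT1G, 0.568 with MT1H, 0.481 with MT1E and 0.427 with MT1X. MT2A gave 0.676 with MT1E and 0.624 with MT1X but 0.319 with MT1H, 0.261 with MT1G and -0.157 with MT1F. SLC30A1 gave -0.906 with MT1H, -0.904 with MT1G, -0.731 with MT1F, -0.704 with MT1E, -0.640 with MT1X and -0.071 with MT2A. These values take in the difference between days, as SLC30A1 was 19.42 to 22.39 CPM at day 7 and 30.59 to 50.22 CPM at day 19. Correlations within a day were not computed. Among 12442 genes, those most like the metallothionein sum were COQ10A (0.903), BANF1 (0.900), KMT5C (0.897), ACBD6 (0.883) and PIAS3 (0.882). Those most like SLC30A1 were VPS13D (0.995), MAP3K9 (0.987), KIF13B (0.980), IGF2R (0.980) and TRIO (0.978). The latter 5 all have long transcripts, from 8774 nt (KIF13B) to 16290 nt (VPS13D), the class whose levels differed between replicates of day 19.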

How the data were processed

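Transcript tables of 12 libraries, 2 in each of 6 groups, were used. The authors named HISAT, Bowtie2, RSEM and the hg38 build, per the submitters' processing notes, without versions; the strand of counting is not given in the sources used here. The deposited expected counts are RSEM estimates of reads per transcript without normalisation, in which a read that fits several transcripts is split among them. For the deposited FPKM values the authors divided by length and by mapped reads, per the file headers. The lowest FPKM listed was 0.01. Both were summed per Entrez gene in Python 3.11.15 (pandas 2.3.3, numpy 2.4.6), and counts were rounded to whole numbers for the tests. Of 23922 genes, 23801 matched a RefSeq symbol.

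In R 4.3.3, edgeR 4.0.16 was run with filterByExpr on the 6 groups (18101 genes), TMM scaling, 1 quasi-likelihood fit of all 12 libraries with 6 residual degrees of freedom, and Benjamini-Hochberg adjustment over all tested genes; calls have an adjusted p of at most 0.05 (two-sided). The coefficient of variation common to all genes, beyond counting error, came to 5.42%. A standard error is the size of the log2 change over the root of its F statistic. The code was tested on simulated data. The alternatives were DESeq2 1.42.0, RLE size factors, no filter, limma 3.58.1 on log2(FPKM + 1) and log2(FPKM + 0.1), libraries of the same day alone, a replicate block, leaving out the 10 most abundant genes or each library, and, added after seeing the data, removing the trend with transcript length.

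The members and gene lists were chosen with earlier results of these data known. All 9 members, the neighbours of the cluster and all other metallothionein genes in the files are named, and from each other list the 3 called genes with the smallest p in each comparison with DMSO; a few genes that it takes in are not reported here. The 5 genes most like a pattern were taken by Pearson r of log2(CPM + 1) among tested genes of at least 5 CPM, without LOC, LINC and MIR symbols. Coordinates are those of RefSeq (GRCh38.p14), the hg38 assembly. Floors of 3 counts cover counting error only.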

Additional observations from a re-analysis of the deposited data

Results flagged for a closer look

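In 4 cases the effect of a hormone on a gene differed between day 7 and day 19 by a test of the difference itself (edgeR's quasi-likelihood test, Benjamini-Hochberg over 18101 genes). MT1F, a metallothionein, gave a difference of -1.47 in log2 for T3 (adjusted p = 0.00233, edgeR) and of -1.14 for T4 (adjusted p = 0.0143, edgeR). At day 7 both hormone libraries of each pair lay above the DMSO libraries, and at day 19 both lay below them. MT1X gave -0.72 for T3 (adjusted p = 0.0142, edgeR), with hormone libraries above DMSO on both days. MT1H gave 1.38 for T4 (adjusted p = 0.0453, edgeR), resting on 7 and 9.09 expected counts in the day 19 DMSO libraries. Of all tested genes, 38.0% passed this test for T3 and 27.7% for T4.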

How the results depend on the processing

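Of 1659 single-gene values under the alternatives, 1491 kept their side of the threshold, 131 lost a call and 37 gained one. No called value changed sign. Among the 1491 were 36 whose sign differed where neither value was called. Of the 7 tested genes, the number called was 4 (T3) and 3 (T4) at day 7, 3 and 7 at day 19, 0 and 5 for T4 against T3 on the days, 3 (DMSO), 6 (T3) and 6 (T4) between days, and 2 for each difference of effects. DESeq2 called 3 for T4 against T3 at day 19 and 1 for the T4 difference of effects, and no filter called 1 for the latter. On log2(FPKM + 1) limma called 1 with T3 and 1 with T4 at day 7, 3 for T4 against T3 at day 19, 6 between days in DMSO and 1 for the T4 difference of effects. With 0.1 as pseudocount these were 1, 1, 3, 6 and 1, and the T3 difference of effects had 1. Without a filter on FPKM they were 1, 1, 1, 6 and 0, and the T3 difference of effects had 1. Libraries of the same day alone called 5 with T4 at day 7, 1 for T4 against T3 at day 7 and 0 at day 19. The causes of these changes were not tested. Leaving out 1 library gave 1 to 4 (T3) and 1 to 4 (T4) at day 7, 1 to 5 and 5 to 7 at day 19, 0 to 0 and 0 to 7 for T4 against T3, 3 to 5 (DMSO), 6 to 7 (T3) and 4 to 7 (T4) between days, and 1 to 5 (T3) and 0 to 3 (T4) for the differences of effects. RLE size factors, leaving out the 10 most abundant genes and removing the length trend changed no such number by over 1.5 times.

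The correlation of replicate deviations between groups ranged from -0.195 to 0.263. The highest was between the DMSO and T3 pairs of day 19, and whether libraries of the same number were related was not tested. A fit with the replicate number as a block (replicate block) called 4, 3, 3 and 7 genes in the comparisons with DMSO and 0 and 5 for T4 against T3, and changed no call of a member; MT1X with T3 at day 7 was 1.22 under it.

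Over all genes, DESeq2 called 1907 with T3 at day 7 where edgeR called 2891. Day 7 libraries alone called 5328 with T3, 3460 with T4 (edgeR on all libraries 1162) and 435 for T4 against T3 (66), and day 19 libraries alone 1478 for T4 against T3 (2848). Limma on log2(FPKM + 1) moved the median of all genes by -0.285 between days in DMSO. There MT1E, MT1F and MT1X became calls, and the share of calls that were higher went from 51.9% to 33%. With T4 at day 19 that share went from 48.9% to 67.3%. Depth limits MT1A and MT1M, which stayed untested, and MT1H.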

Other observations

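Genes of oxidative stress, metal handling and glucocorticoid response, pathways known to touch metallothionein promoters, were measured in the same cells. Of all tested genes, 16.0% passed with T3 and 6.42% with T4 at day 7, and 52.3% and 42.8% at day 19, and each list's count stands beside those shares. At day 19, 6 of 12 tested oxidative stress genes rose and 1 fell with T3, and 8 rose and 1 fell with T4, so that the T3 count was near its background, with medians of 0.38 and 0.54 in log2. HMOX1, which degrades heme, measured 117.2 and 120.1 CPM in DMSO, 473.3 and 413.3 CPM with T3, and 342.7 and 336.7 CPM with T4. It rose by 1.9 and 1.52 (adjusted p = 1.1e-11 and 2.54e-10, edgeR). TXNRD1, a thioredoxin reductase gene, rose by 1.1 and 0.69, and SRXN1, which repairs oxidised peroxiredoxins, by 1.37 and 1.11. At day 7 the same list had 1 higher and 1 lower with T3 and 0 higher and 1 lower with T4. SLC7A11, the cystine importer, was the lower one, by log2 values of -0.6 and -0.39. Of 10 heat shock genes, 7 rose and 0 fell at day 19 with each hormone, among them HSPB1 (1.72 and 1.43), HSPA1A (1.25 and 0.92), HSPA1B (1.16 and 0.83) and DNAJB1 (0.79 and 0.48), and 2 rose at day 7 with each, HSPB1 (0.59 and 0.33) and HSPE1 (0.32 and 0.23). HSPA1A and HSPA1B are near-identical copies between which reads may be split.

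Copper and iron genes at day 19 had 4 higher and 8 lower of 14 with T3 and 3 higher and 8 lower with T4. SLC40A1, the iron exporter ferroportin, rose by 1.75 and 1.32, TFRC, the transferrin receptor, by 1.47 and 0.81, and FTH1, the ferritin heavy chain, by 0.88 with T3, while ATP7B, the hepatic copper exporter, fell by 0.8 with T4. At day 7 TFRC rose (0.65 and 0.36) and ATP7B fell (-0.49 and -0.42). Glucocorticoid response genes split, with 5 higher and 3 lower of 10 with T3 and 4 higher and 3 lower with T4 at day 19. SGK1 (1.06 and 0.69) and GADD45B (1.07 and 0.76) rose with both, KLF9 rose with T3 (0.78), and TSC22D3 fell with T4 (-0.99). At day 7 GADD45B rose with both (0.88 and 0.66), SGK1 with T3 (0.53) and KLF9 with T4 (0.49). KLF9 is also a known direct target of the thyroid hormone receptor. Of 7 tested zinc-dependent enzymes, all 7 fell at day 19 with each hormone, among them SORD, which turns sorbitol to fructose (-1.89 and -1.83), ADH4, an alcohol dehydrogenase (-3.22 and -2.39), CA4 with T3 (-2.14) and CA2 with T4 (-1.01). CA2 fell at day 7 as well (-0.42 and -0.39). Hepatocyte markers fell in the same comparisons of day 19 (10 of 10 with each hormone), and their part in the enzyme values was not tested.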
